A study of Mus musculus with 60 samples.

Results

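This account follows the chromatin of 10 transcription factor genes of the ATF and CREB family: Atf1, Atf2, Atf3, Atf4, Atf5, Atf6, Atf7, Creb1, Creb3 and Creb5. They were listed by name, and they are 10 of the 21887 protein-coding genes in the RefSeq table of the mouse genome (GRCm38.p6). For each, every deposited peak overlapping the gene body or the 10 kb on either side was collected. Chromatin was measured in the dorsal root ganglia of lumbar segments L4 to L6, which hold the cell bodies of the sensory neurons of the sciatic nerve, in mice of 6 to 8 weeks. ChIP-seq was run for acetylation of histone H3 at lysine 9 (H3K9ac) and lysine 27 (H3K27ac) and trimethylation at lysine 27 (H3K27me3), and ATAC-seq measured open chromatin.

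Tissue was taken 24 h after 1 of 4 operations. These were sciatic nerve axotomy (SNA), the sham operation for it (Sham), dorsal column axotomy of the spinal cord (DCA), and laminectomy alone (Lam), which opens the spine as for DCA without the axotomy. No genetic change is named in the labels. A ChIP sample pooled ganglia of 10 mice, with 2 samples for each mark and operation and 2 input controls beside them. An ATAC sample came from 1 mouse, with 3 per operation. Of the 60 samples, 24 were ChIP, 24 input and 12 ATAC. The authors pooled the replicates of a group before calling peaks, so there are 16 peak lists, 1 for each assay and operation. No difference between operations therefore has a replicate spread, an error or a test. Differences are given as values beside the same quantity over all protein-coding genes, and the SNA and Lam lists are both set against the same Sham list.

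All these factors carry a basic leucine zipper, a helix that pairs with a partner protein and grips DNA, mostly at the cAMP response element or related sequences. Creb1 and Atf1 are activated by phosphorylation after cAMP or calcium signals. Atf2, Atf7 and Creb5 form a subgroup that can pair with Jun proteins and that stress kinases act on. Atf4 and Atf5 are made when the integrated stress response slows general translation. Atf6 and Creb3 are held in the membrane of the endoplasmic reticulum until proteases release their DNA-binding part. Atf3 is low in uninjured sensory neurons and is widely used as a marker of neurons whose axon has been cut.

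The 250 bases before the start of 3 of these genes are printed because the results below turn on them: Atf3 as the injury marker, Atf4 as a start acetylated at every operation, and Creb5 because its 2 starts lie on either side of a stretch with H3K27me3. They come from RefSeq (GRCm38.p6) and read 5′ to 3′ along the gene's strand. Capitals mark a match to a cAMP response element (TGACGTCA or TGACGTNA), an AP-1 site (TGANTCA), a C/EBP-ATF response element (TGATGNAAN), an endoplasmic reticulum stress element (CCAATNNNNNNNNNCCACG) or a CCAAT box (CCAAT), on either strand. The base just before the start is counted as −1.
Atf3, chr1:191183334-191183583, minus strand: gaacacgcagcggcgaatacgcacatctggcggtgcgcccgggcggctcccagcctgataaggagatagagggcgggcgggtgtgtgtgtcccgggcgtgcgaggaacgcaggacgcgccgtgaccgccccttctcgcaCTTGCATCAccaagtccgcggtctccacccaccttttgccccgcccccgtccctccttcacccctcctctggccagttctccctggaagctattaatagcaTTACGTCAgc
Atf4, chr15:80254934-80255183, plus strand: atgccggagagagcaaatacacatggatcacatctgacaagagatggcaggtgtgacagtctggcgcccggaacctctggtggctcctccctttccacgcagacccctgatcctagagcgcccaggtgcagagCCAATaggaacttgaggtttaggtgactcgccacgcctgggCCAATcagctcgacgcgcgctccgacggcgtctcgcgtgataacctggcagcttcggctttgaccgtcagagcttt
Creb5, first start, chr6:53287053-53287302, plus strand: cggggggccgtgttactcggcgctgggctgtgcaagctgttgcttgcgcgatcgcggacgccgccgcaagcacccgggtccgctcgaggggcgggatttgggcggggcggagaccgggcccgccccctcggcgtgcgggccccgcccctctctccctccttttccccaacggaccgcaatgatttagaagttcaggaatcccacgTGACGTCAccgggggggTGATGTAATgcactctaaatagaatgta
Creb5, second start, chr6:53573124-53573373, plus strand: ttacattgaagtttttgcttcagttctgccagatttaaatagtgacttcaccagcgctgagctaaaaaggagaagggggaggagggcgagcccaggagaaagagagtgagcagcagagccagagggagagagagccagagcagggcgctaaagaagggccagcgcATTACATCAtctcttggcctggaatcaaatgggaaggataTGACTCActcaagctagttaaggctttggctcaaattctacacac

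The Atf3 window holds a cAMP response element variant at −10 to −3 and a C/EBP-ATF response element at −111 to −103, both read on the opposite strand. The first Creb5 start has the full palindrome TGACGTCA at −45 to −38 and a C/EBP-ATF response element at −28 to −20. At the second Creb5 start an AP-1 site lies at −45 to −39 and a C/EBP-ATF response element at −85 to −77. Atf4 has CCAAT boxes at −117 to −113 and −76 to −72. Over 32851 windows of this length before RefSeq starts, TGACGTCA was in 1.55%, TGACGTNA, which includes it, in 2.52%, TGANTCA in 6.75%, TGATGNAAN in 3.44%, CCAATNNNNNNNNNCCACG in 0.113% and CCAAT, which the last also contains, in 33.8%. Windows were found for 9 of the 10 members, 11 windows in all. The GC box GGGCGG was in 9 of the 11, against 32.7% of all windows. The first Creb5 window and the Atf3 window held 5 each, with overlaps among them, and the Atf4 window held 0. The GC content of the 11 windows ran from 49.2% at the second Creb5 start to 77.6%, where the median of all windows was 52.4%. A match is a string of letters and says nothing of a bound factor.

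The lists differ in size and depth, which bears on every number below. Over the whole genome the H3K9ac lists held 50332 (Sham), 74652 (SNA), 50667 (Lam) and 89647 (DCA) peaks, the H3K27ac lists 43803, 75824, 67311 and 46489, the ATAC lists 153556, 174605, 158160 and 164365, and the H3K27me3 lists 122953, 141635, 154055 and 90011. The background read density computed from the peak values, a measure of usable depth, ran from 7.87 to 26.0 reads per kb in the H3K9ac lists, 10.3 to 14.7 for H3K27ac and 108 to 123 for ATAC. It includes a scale factor of each list, from 0.315 (Sham) to 0.918 (DCA) for H3K9ac. Without that factor the H3K9ac densities were 25.0 (Sham), 27.3 (SNA), 25.5 (Lam) and 28.3 (DCA). H3K9ac peaks also differed in width over the whole genome, with medians of 440 bp (Sham), 439 bp (SNA), 388 bp (Lam) and 532 bp (DCA). For H3K27me3 no depth could be computed. Of 8 sensory neuron marker genes, 7 (Sham) or 8 (SNA, Lam and DCA) had an ATAC peak within 1 kb of the start, but only 1 or 2 had H3K9ac there, where 5 or 6 of 7 glial markers did. Of 6 muscle and epithelial markers 0 had acetylation at the start in any list, though 3 to 5 had an ATAC peak. H3K9ac at starts was thus found at more of the glial than of the neuronal markers, and in such bulk tissue fewer cells of a type cannot be told apart from less signal per cell.

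Atf3, Atf5 and Creb3 were the members whose ATAC peak numbers differed most between operations. Across the 10 genes the ATAC lists held 55 peaks after Sham, 90 after SNA, 67 after Lam and 71 after DCA. From Sham to SNA, 8 members had more, 1 had as many and 1 had fewer. Atf3, Atf5 and Creb3 at least doubled, counting with 1 added to each number (3 of 10; 10.1% of all genes measured in this pair did). The same 3 members at least doubled from Sham to Lam, an operation that cuts no axon (8.08% of all genes), and 0 of 10 from Lam to DCA (8.25%). The median member's log2 ratio was 0.79 for SNA over Sham against 0.15 for all genes, 0.24 against 0.00 for Lam over Sham, and 0.07 against 0.00 for DCA over Lam. Set against DCA directly, SNA had 0 of 10 members at least doubled in ATAC (7.37%) and in H3K9ac (3.24%), and 4 of 10 in H3K27ac (26.8%). For Atf3, Atf5 and Creb3 the Sham list stood below all 3 other lists, and so it did for Atf4, Atf6 and Atf7. The Sham list was also the shortest ATAC list over the whole genome, with 153556 peaks.

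In acetylation the members' numbers and the sizes of the whole lists moved together. H3K27ac peaks numbered 37 after Sham, 89 after SNA, 75 after Lam and 46 after DCA. From Sham to SNA 6 of 10 members at least doubled (31.2% of all genes), from Sham to Lam 4 of 10 (24.6%) with 1 of 10, Atf3, at least halved (6.03%), and from Lam to DCA 4 of 10 were at least halved (21.7%). H3K9ac peaks numbered 50, 79, 54 and 102 in the same order. From Sham to SNA 2 of 10 at least doubled (17.9%), from Sham to Lam 1 of 10 (11%), and from Lam to DCA 3 of 10 (31.2%). With equally many of the strongest peaks taken from each list, the log2 ratio of the summed H3K9ac numbers went from 0.66 to −0.03 for SNA over Sham and from 0.92 to 0.16 for DCA over Lam, and that of H3K27ac from 1.27 to 0.49 for SNA over Sham and from −0.71 to −0.10 for DCA over Lam. The summed ATAC number kept a log2 ratio of 0.52 for SNA over Sham by the same measure, against 0.71 as counted.

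**Figure D1:**
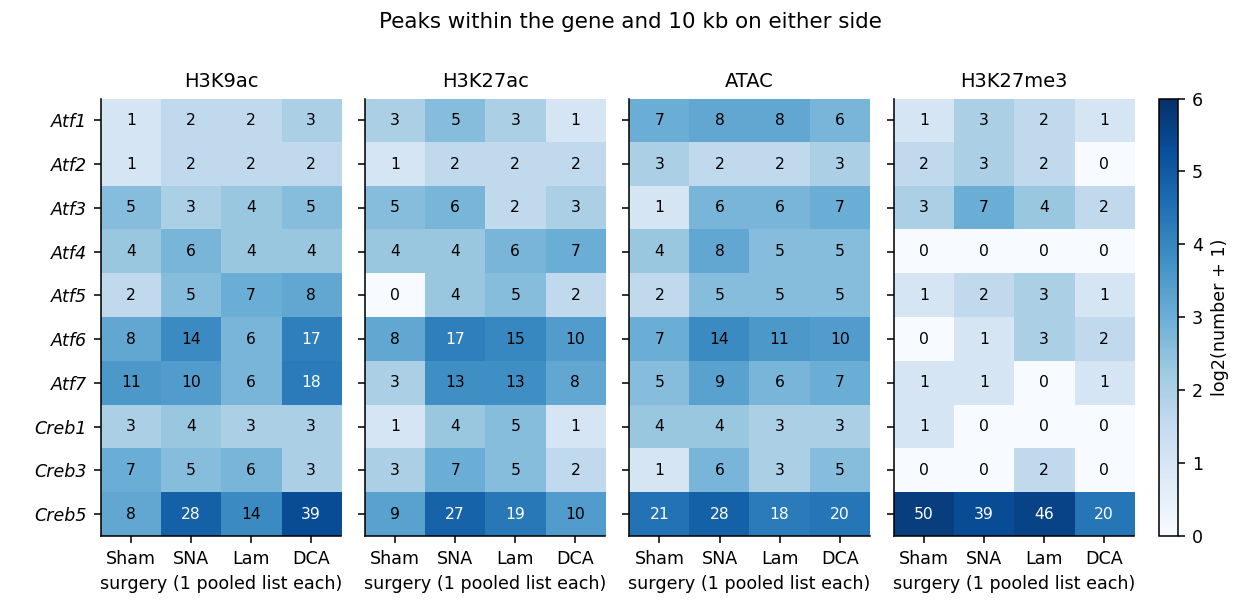
Number of peaks within each gene and 10 kb on either side, by assay (panels), member (rows) and operation (columns, 1 pooled list each); the shade is log2 of the number plus 1. Atf3 and Creb3 have 1 ATAC peak after Sham and 3 to 7 in the other lists, and Creb5 has the highest H3K27me3 number in every list.

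Presence was also compared position by position, a peak being unmatched where it overlaps none of the other list by even 1 bp. After SNA 62 of the 90 ATAC peaks of the members had no Sham partner (68.9%, 95% Wilson interval 58.7 to 77.5%), against 56.9% of ATAC peaks around all protein-coding genes. For Lam against Sham the member share was 55.2% and the general share 56.9%, and for DCA against Lam 49.3% and 53.7%. In the acetylation lists the member shares were above the general ones, with the general share inside each interval: 71.9% against 63.9% for H3K27ac and 55.7% against 48.1% for H3K9ac in SNA without Sham, 32.6% against 26.7% and 68.6% against 60.7% in DCA without Lam, and 62.7% against 53.8% and 44.4% against 39.4% in Lam without Sham. For H3K27me3 they were 62.5% against 69.1% (SNA without Sham), 70.4% against 59.3% (DCA without Lam) and 67.7% against 69.1% (Lam without Sham). These intervals cover counting error only, and peaks of 1 gene are not independent. Without Creb5 some acetylation shares fell below the general ones. They were 43.1% (H3K9ac, SNA without Sham), 35% (H3K9ac, Lam without Sham) and 25% (H3K27ac, DCA without Lam). The others stayed above, at 71% (H3K27ac, SNA without Sham), 62.5% (H3K27ac, Lam without Sham) and 66.7% (H3K9ac, DCA without Lam). When peaks had to reach a −log10 q of 5, the share of SNA peaks without a Sham partner was 50.0% for ATAC, 88.9% for H3K9ac and 64% for H3K27ac, and the general share at that limit was not computed.

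**Figure D2:**
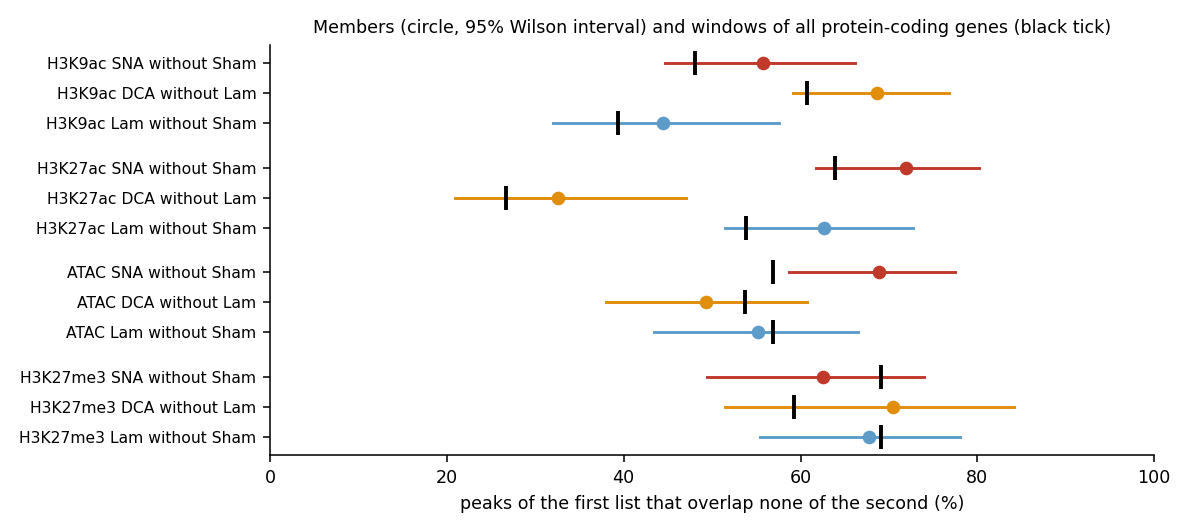
Share of the members' peaks in the first named list that overlap no peak of the second (circle, with its 95% Wilson interval), beside the share for the windows of all protein-coding genes (black tick). Of the 12 comparisons, ATAC in SNA without Sham is the one whose interval lies above the tick, at 68.9% against 56.9%.

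When overlapping ATAC peaks of the 4 lists were merged, the members had 150 regions. Of these, 20 were in all 4 lists (13.3%, against 12.2% around all genes) and 34 in SNA alone (22.7% against 15.5%). A further 9 were in both axotomy lists and in neither control list (6% against 4.35%), and 8 were in every list but Sham (5.33% against 3.51%). H3K27ac gave 118 regions, 33 of them in SNA alone (28% against 22.8%) and 3 in both axotomies only (2.54% against 2.36%). H3K9ac gave 127, with 43 in DCA alone (33.9% against 28%) and 21 in all 4 (16.5% against 19.9%). Most of the chromatin regions of these genes were thus called after some operations and not others, as around genes in general.

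Atf3 lies at chr1:191170296-191183333 on the minus strand and spans 13.0 kb. Its start was open in all 4 lists. The ATAC peak over it spanned chr1:191182711-191183745 after Sham (1035 bp, fold enrichment 3.81), chr1:191182451-191183959 after SNA (1509 bp, 4.47), chr1:191182917-191183882 after Lam (966 bp, 4.05) and chr1:191182995-191184004 after DCA (1010 bp, 3.53). Fold enrichment, −log10 p and −log10 q are the authors' own values for a peak. These values are scaled list by list, so folds of different lists are set side by side without comparison. In its own list the peak ranked by −log10 p at the 97.3, 98.4, 97.9 and 96.8 percentile in the order Sham, SNA, Lam and DCA. The peak was widest after SNA. All 4 cover the sequence printed above, with its response elements.

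Away from the start, Atf3 had 0 ATAC peaks more than 1 kb out in the Sham list and 5, 4 and 6 in the SNA, Lam and DCA lists. Merged, its ATAC peaks formed 9 regions. A region in the gene body at chr1:191173400-191174200, 9.1 kb from the start, was in the SNA, Lam and DCA lists. So was chr1:191164129-191164955, 18.4 kb from the start and beyond the gene's end, within 1 kb of the start of Fam71a. Upstream, chr1:191184462-191185166 was in both axotomy lists and in neither control. Further upstream chr1:191189964-191190736 was in the Lam and DCA lists, as was chr1:191171123-191171857 in the gene body. Gene-body regions chr1:191170524-191170835 and chr1:191172581-191172804 were in the SNA list alone, and chr1:191188500-191188747, upstream, in the DCA list alone. No distal ATAC region of Atf3 was thus in the Sham list, and Lam, which cuts no axon, had 4 of the 8. These distal peaks were weak. When a −log10 q of 5 was required the numbers were 1 (Sham), 1 (SNA), 2 (Lam) and 1 (DCA), and within 50 kb of the gene the lists held 12, 18, 19 and 16 peaks. Thinned to a common depth they held 1, 6, 5 and 7. The ATAC densities, 108 to 123 reads per kb, differ little, so this thinning could remove few peaks and says little about depth. The limit was the lowest −log10 p of any ATAC list, 2.1, where the SNA list itself began at 2.47. Around the members 413 of 413 SNA peaks were kept.

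Histone acetylation lay on both sides of the Atf3 start and left the start base uncovered in all 8 acetylation lists. H3K9ac was present upstream within chr1:191183453-191186384 and downstream within chr1:191182341-191183279 after every operation. H3K27ac was present upstream within chr1:191183464-191186002 after every operation, and downstream within chr1:191182320-191183203 after Sham, SNA and Lam but not DCA. The numbers in the window were 5 (Sham), 3 (SNA), 4 (Lam) and 5 (DCA) for H3K9ac and 5, 6, 2 and 3 for H3K27ac. A distal H3K27ac region, chr1:191167132-191167519, 15.8 kb from the start and beyond the gene's end, was in the Sham and DCA lists. Its fold after Sham was 6.14, with a −log10 p of 13.9. Fold enrichment of the strongest H3K27ac peak near the start was 3.62 after Sham, 5.66 after SNA, 5.23 after Lam and 5.02 after DCA. Within its own list that peak stood at the 37.0 percentile of −log10 p after Sham and at 87.8, 76.9 and 77.1 after SNA, Lam and DCA. The H3K9ac peaks covered 2.6 kb after Sham and 3.1 kb after SNA and the H3K27ac peaks 2.4 and 3.8 kb, so after SNA both marks covered more although H3K9ac had fewer peaks. H3K27me3 peaks in the window numbered 3, 7, 4 and 2, had folds of 1.00 to 1.45, and 0 had a q of at most 0.05.

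**Figure D3:**
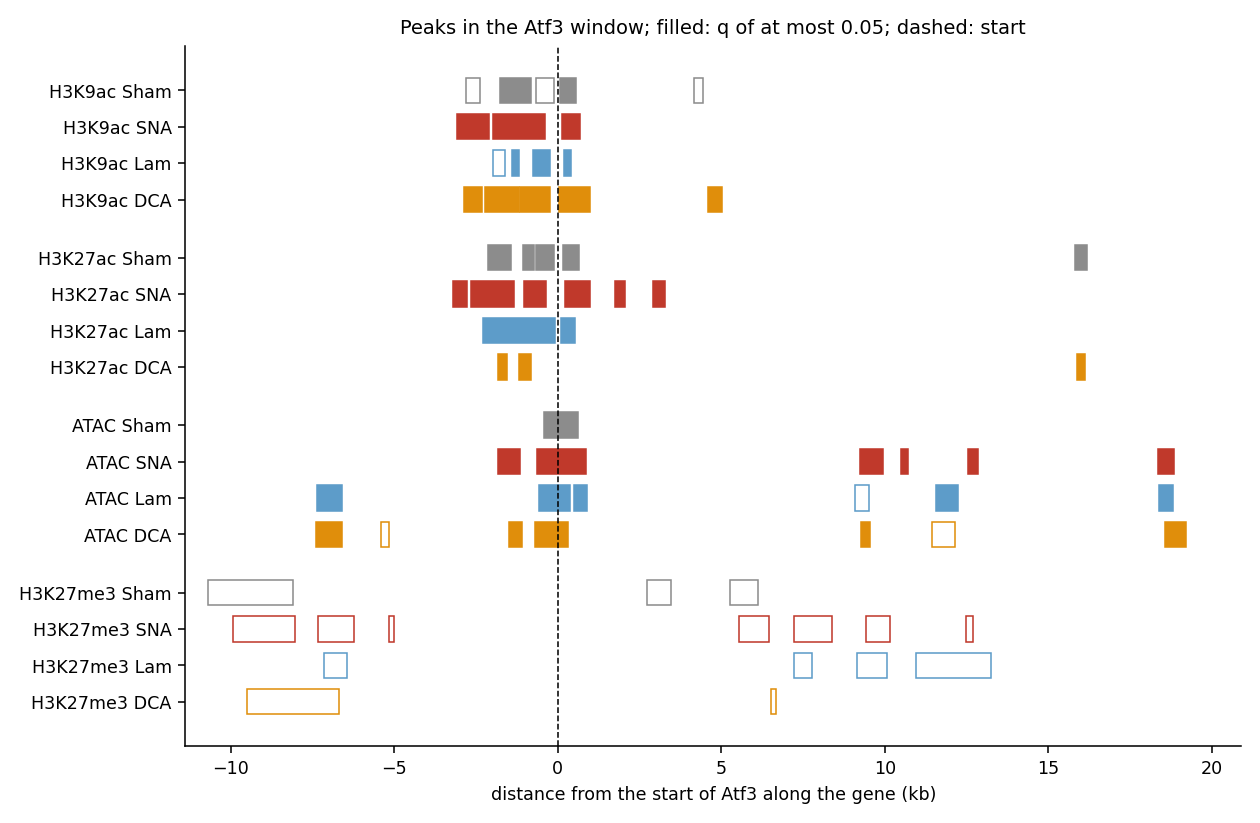
Peaks in the Atf3 window by distance from its start along the gene (kb, negative is upstream), 1 row for each assay and operation; filled boxes have a q of at most 0.05 and the dashed line is the start. The start is open after every operation, acetylation lies on both sides of it, and the ATAC row for Sham holds that 1 peak alone.

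Every member shared this open, acetylated start. All 10 had ATAC signal called within 1 kb of a start in all 4 lists (62.1% of all genes), and H3K9ac too (43.2%). At a −log10 q of at least 1.3, 8 of 10 had H3K9ac there in all 4 lists. The share of all genes at that limit was not computed. H3K27ac was there in all 4 lists for 7 of 10 (32.7%). It was missing after Sham at Atf2, Atf5 and Creb1 (present at 7 of 10; 40.4% of all genes), and after DCA at Creb1 (9 of 10; 43.3%). H3K27me3 lay within 1 kb of a start only at Creb5 and only in the Lam list (1 of 10; 25.1% of all genes), with a fold of 1.05, and at 0 of 10 in all 4 lists (3.4%). The peaks of the marks sat differently on the start base itself: ATAC covered it in 9, 10, 9 and 9 of 10 members in the order Sham, SNA, Lam and DCA (59.6%, 62.1%, 59.8% and 61.3% of all genes), H3K9ac in 4, 5, 4 and 8 (22.4%, 20.8%, 20.4% and 43.5%) and H3K27ac in 4, 6, 5 and 2 (16.2%, 20.5%, 25.2% and 16.9%). The H3K9ac list of DCA, which covered the most starts, is also the deepest at 26.0 reads per kb.

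**Figure D4:**
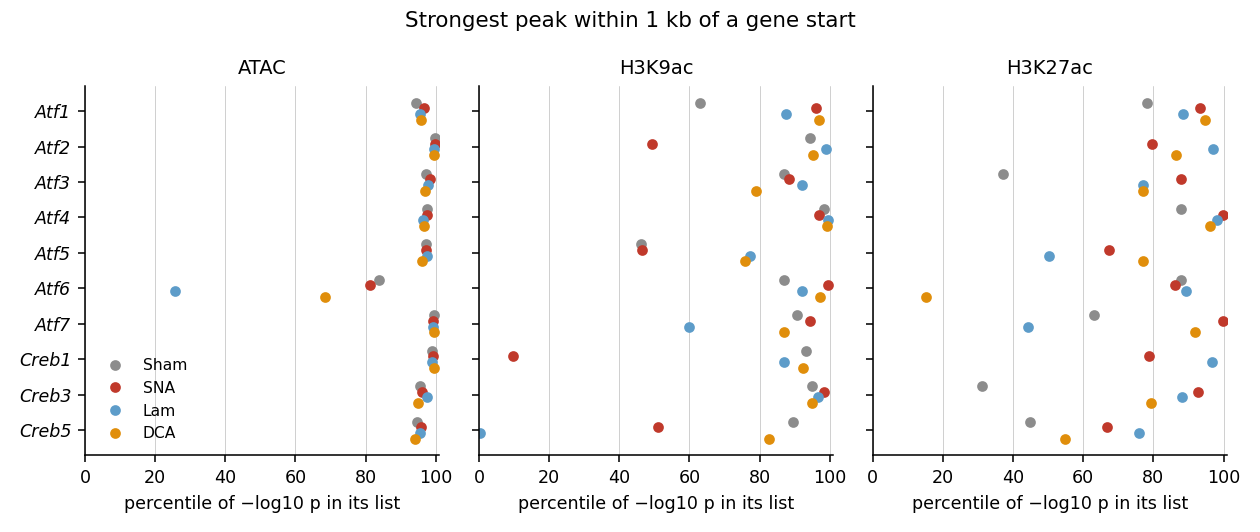
Rank of each member's strongest peak within 1 kb of a start, as the percentile of −log10 p within its own list, for ATAC, H3K9ac and H3K27ac; a missing point means no peak. Atf6 has the lowest ATAC rank of the set in every list, and the other 9 members lie closer together in ATAC rank than in acetylation rank.

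Among the cAMP-responsive factors, Creb1 (chr1:64532794-64604548, plus strand), the namesake of the family, had a strong open start with few other peaks. Its start ATAC peak had a fold of 6.00 after Sham, 6.38 after SNA, 5.62 after Lam and 6.79 after DCA. ATAC peaks numbered 4, 4, 3 and 3. Of their 7 merged regions 1 was in all 4 lists, where 12.2% of ATAC regions around all genes were. H3K27ac peaks numbered 1, 4, 5 and 1, and none lay at the start after Sham or DCA. Instead both of those lists held the same gene-body peak within chr1:64580525-64580910, 47.7 kb from the start, with a fold of 8.95 after Sham, and the SNA and Lam lists did not. After Lam the peak just downstream of the start had a fold of 8.72. H3K9ac near the start was 1 peak of 3199 bp after DCA, chr1:64531270-64534468, where the strongest peak of the other 3 lists had 669 to 774 bp. The DCA list had the widest H3K9ac peaks over the whole genome as well, with a median of 532 bp.

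Atf1 (chr15:100227859-100261248, plus strand), the close relative of Creb1, had ATAC numbers of 7, 8, 8 and 6. Of the 8 SNA peaks 5 had no Sham partner, where 56.9% of SNA ATAC peaks around all genes had none. Its start fold was 3.04, 3.85, 3.07 and 3.20. H3K27ac lay just upstream of the start in every list, with folds of 6.14, 5.35, 5.95 and 8.19, and in the SNA and Lam lists also downstream, within chr15:100228376-100228798. H3K9ac there had folds of 3.10, 5.09, 3.56 and 7.07, and only the DCA peak, chr15:100226951-100228667, crossed the start. In the DCA list H3K9ac covered 43.5% of all gene starts, against 20.4% in the Lam list. A gene-body ATAC region at chr15:100250231-100250996 was in all 4 lists, and chr15:100251270-100252058 in those of SNA and Lam.

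The Jun-pairing subgroup held the strongest and the largest members. Atf2 (chr2:73816509-73892677, minus strand), a target of p38 and JNK kinases, had start ATAC folds of 7.82, 8.28, 6.99 and 7.30, the highest of the set in all lists but that of DCA, where Atf7 was higher. Its window was otherwise sparse, with 3, 2, 2 and 3 ATAC peaks and 1, 2, 2 and 2 peaks for each acetylation mark. H3K27ac at its start was missing after Sham and had folds of 4.04 after SNA, 9.21 after Lam and 6.54 after DCA. The mark was thus called at this start after Lam and not after Sham, neither of which cuts an axon.

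Atf7 (chr15:102525946-102625464, minus strand) is the closest relative of Atf2. Its start ATAC folds were 7.74, 7.16, 6.55 and 7.48, next to those of Atf2 within each list. H3K27ac at the start had folds of 4.21 after Sham, 9.58 after SNA, 3.65 after Lam and 6.71 after DCA. The SNA peak spanned 1484 bp where Sham had 791, and the DCA peak 470 bp where Lam had 671. H3K27ac numbers were 3, 13, 13 and 8, lowest after Sham. A gene-body H3K27ac region of 1904 bp, chr15:102584072-102585975, was in the SNA and Lam lists, and an ATAC region of 1400 bp, chr15:102546106-102547505, in those of both axotomies. The strongest peaks of the window away from the start, among them ATAC at chr15:102517671-102519138 in all 4 lists, lie at the starts of Map3k12 and Tarbp2. Map3k12 encodes DLK, a kinase of the axon injury response, and these peaks cannot be assigned to Atf7.

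The factors of the integrated stress response differed from each other. Atf4 (chr15:80255184-80257545, plus strand) is a compact gene with 0 H3K27me3 peaks in any list. Its start ATAC folds were 3.67, 3.78, 3.07 and 3.16, and its H3K27ac folds there 6.16 (Sham), 7.52 (SNA), 7.96 (Lam) and 8.52 (DCA). Within their lists these H3K27ac peaks ranked at the 87.9 to 99.9 percentile by −log10 p, and H3K9ac at the 96.9 to 99.4, so this start was among the strongly acetylated in every list. ATAC peaks numbered 4, 8, 5 and 5, highest after SNA. An ATAC region 8.2 kb upstream, chr15:80246644-80246979, was in both axotomy lists and in neither control, with a fold of 2.56 after SNA. It lies inside the neighbouring gene Mief1 and cannot be assigned to Atf4. The region 8.8 kb downstream, chr15:80263964-80264774, was in all 4 lists and lies at the start of Rps19bp1.

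Atf5 (chr7:44812256-44816658, minus strand), which also acts in the mitochondrial stress response, had 2, 5, 5 and 5 ATAC peaks and 0, 4, 5 and 2 H3K27ac peaks. It was the only member with no H3K27ac peak in its window after Sham. H3K9ac numbered 2, 5, 7 and 8, lowest after Sham as well. An ATAC region at chr7:44803357-44804531 was in every list but Sham, and so was an H3K27ac region at chr7:44818747-44819780, 2.1 kb upstream. An overlapping H3K9ac region, chr7:44818302-44819652, was in both axotomy lists only, with a fold of 4.70 after DCA. The start ATAC peak was there throughout, with folds of 3.68, 3.77, 3.66 and 3.08. Atf5 overlaps Nup62 and Il4i1b, so that these peaks may belong to either neighbour.

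The membrane-bound factors were Atf6 and Creb3. Atf6 (chr1:170704457-170868585), a sensor of unfolded protein, has no start by strand in the table used here, so both gene ends were searched. Its peak at the upper end was the weakest start of the set for ATAC, with folds of 2.44, 2.46, 1.81 and 2.17, and it lay 682, 639, 809 and 688 bp inside that end. The window had 7, 14, 11 and 10 ATAC peaks, 8, 17, 15 and 10 of H3K27ac and 8, 14, 6 and 17 of H3K9ac. Its strongest H3K27ac lay outside the gene, while its strongest H3K9ac was at the upper end, with folds of 7.99 after SNA and 6.83 after DCA. An H3K27ac region at chr1:170694005-170696105, beyond the lower end, was in all 4 lists, with a fold of 18.4 after Sham, 4.04 after SNA, 14.0 after Lam and 7.07 after DCA. H3K9ac overlapped it at chr1:170694647-170695837 in both axotomy lists and at chr1:170695940-170696191 in the Sham list. Within the gene an ATAC region at chr1:170812904-170813245 was in the SNA list alone.

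Creb3 (chr4:43562658-43567061, plus strand), which is cut in the Golgi apparatus and has been found in axons of sensory neurons, had 1, 6, 3 and 5 ATAC peaks, with both axotomies above their controls. They covered 1.2, 4.7, 2.9 and 3.0 kb. The start peak, with folds of 2.88, 3.02, 3.44 and 2.65, was there in all 4 lists, so the numbers differ through the surrounding peaks. A region 2.1 kb upstream, chr4:43560161-43560577, was in the SNA list alone, with a −log10 p of 16.9. Another, chr4:43568984-43569637, was in both axotomy lists and neither control. H3K9ac peaks numbered 7, 5, 6 and 3 and covered 4.4, 5.6, 3.1 and 7.5 kb, so both axotomies had fewer peaks than their controls and more covered length. Near the start the DCA list had 1 peak, of 2972 bp, where Lam had 2, the stronger of 587 bp, and Sham 2, the stronger of 778 bp. H3K9ac peaks of the DCA list were also wider over the whole genome, with a median of 532 bp against 388 bp for Lam. Creb3 lies 74 bp from Tln1 and overlaps Gba2, and the H3K9ac region at chr4:43556527-43560568, in all 4 lists, lies inside Tln1. The ATAC region of the SNA list alone also lies inside Tln1, and that of both axotomy lists lies inside Gba2. Neither can be assigned to Creb3.

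Creb5 (chr6:53287226-53700364, plus strand), the third of the Jun-pairing subgroup, spans 413.1 kb and has 2 starts. It held the most peaks of the set in every list except H3K9ac of Sham, where Atf7 had more, and H3K27ac of DCA, where Atf6 had as many. H3K9ac peaks numbered 8, 28, 14 and 39 and covered 3.2, 11.3, 5.7 and 20.1 kb. H3K27ac peaks numbered 9, 27, 19 and 10 and covered 5.3, 12.3, 11.8 and 5.8 kb. From 1 kb before the second start on lay 6, 22, 10 and 28 of the H3K9ac peaks and 5, 25, 17 and 8 of the H3K27ac peaks. Most of the acetylation of the gene was thus around and beyond that start, among it an H3K9ac region at chr6:53612071-53613234 and an H3K27ac region at chr6:53636337-53637483, both in all 4 lists. An H3K27ac region next to the latter, chr6:53637594-53638672, was in every list but Sham. The first start had H3K9ac after Sham and DCA and H3K27ac after Sham and Lam, while the second had both marks in all 4 lists. At the second start the H3K9ac peak after Lam was weak, with a fold of 1.87 and a −log10 q of 0.19.

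ATAC numbers at Creb5 were 21, 28, 18 and 20. Both starts were open in each list, the first with folds of 3.35, 3.88, 3.42 and 3.08 and the second with 3.02, 2.92, 2.69 and 2.92. A gene-body region 10.2 kb before the second start, chr6:53562467-53563127, was also in all 4 lists. Between the starts H3K9ac at chr6:53337306-53337849 was in both axotomy lists only, with a fold of 4.60 after DCA. The gene's size gives it much weight in the sums of the set. Without Creb5 the H3K9ac sums were 42, 51, 40 and 63, and those of H3K27ac 28, 62, 56 and 36. The ATAC sums without it were 34, 62, 49 and 51.

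H3K27me3, the mark of Polycomb repression, was concentrated at Creb5. The gene held 50 of the 59 H3K27me3 peaks of the members after Sham, 39 of 56 after SNA, 46 of 62 after Lam and 20 of 27 after DCA. They covered 51.0, 42.8, 43.3 and 18.9 kb. After Sham 24 of the 50 had a q of at most 0.05, the highest such number of any protein-coding gene in that list (the next had 20, and 1.96% of genes had at least 1). This count was not corrected for length, and the Creb5 window spans 433.1 kb. The Sham list also held only 46.3% of its 5000 strongest ranks, so genes whose strong peaks are missing cannot be ranked. Of the 24, 21 lay between the 2 starts, at chr6:53436814-53570294, a stretch of 133.5 kb. The one with the highest −log10 p, 9.5, was chr6:53477907-53478999, with a fold of 3.48, and folds of the 24 ran from 1.71 to 3.8. After SNA, Lam and DCA 0 Creb5 peaks had such a q.

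**Figure D5:**
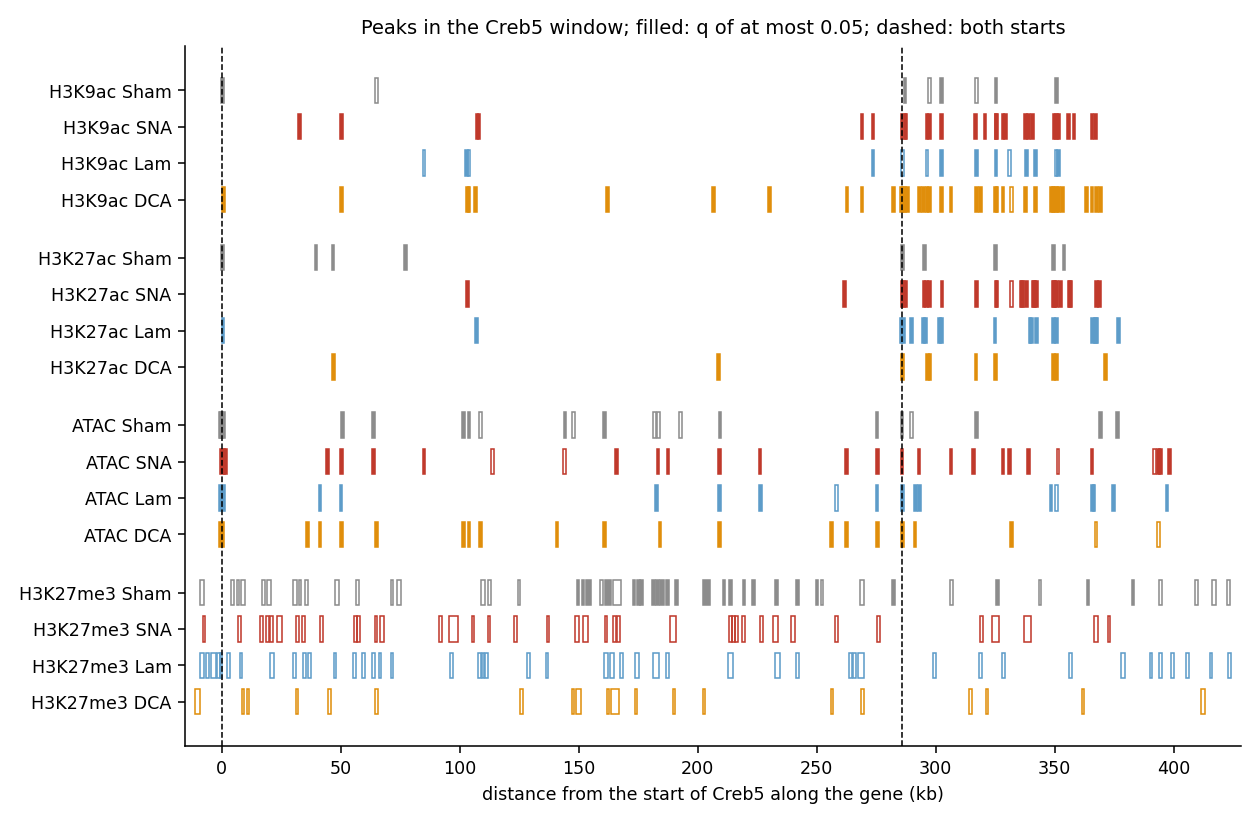
Peaks in the Creb5 window by distance from its first start (kb), 1 row for each assay and operation; filled boxes have a q of at most 0.05 and dashed lines mark both starts. Filled H3K27me3 boxes are in the Sham row alone, mostly between the starts, and acetylation gathers beyond the second start.

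The lists themselves limit what this shows. Whole lists held 1613 H3K27me3 peaks at that q after Sham, 218 after SNA, 916 after Lam and 43 after DCA. Of the 5000 strongest ranks that the peak names count, only 46.3% (Sham), 46.3% (SNA), 53.7% (Lam) and 34.2% (DCA) were in the H3K27me3 lists used here, against 96.6% to 96.9% for ATAC and 99.5% to 100% for acetylation. A strong peak missing from one of these lists can therefore be a peak not kept in it. Of the 24 Sham peaks 9 overlapped a weaker SNA peak, 9 a Lam peak and 4 a DCA peak, and 8 overlapped none. Whether H3K27me3 at Creb5 differs between the operations cannot be told from these lists. The other 9 members had 9, 17, 16 and 7 H3K27me3 peaks in all. Over the set, 3 of 8 measured members at least doubled from Sham to SNA (18.4% of all genes) and 4 of 8 were at least halved from Lam to DCA (58.8%).

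Open chromatin and acetylation were also set against each other. Among the members' ATAC peaks, H3K9ac overlapped 27.3% after Sham, 24.4% after SNA, 20.9% after Lam and 40.8% after DCA, against 18.3%, 21.0%, 16.3% and 26.0% around all genes. H3K27ac overlapped 21.8%, 20.0%, 34.3% and 21.1%, against 13.8%, 18.7%, 19.4% and 13.8%. Both marks lay on 10 of 55, 16 of 90, 14 of 67 and 14 of 71 ATAC peaks, and of these 3, 5, 4 and 6 were away from a start. The doubly marked sites were thus mainly the starts.

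Genes that work with these factors were taken from lists. For 15 genes tied to Atf3 and nerve injury, ATAC peaks numbered 52 after Sham, 70 after SNA, 62 after Lam and 50 after DCA, and 4 of 15 at least doubled from Sham to SNA (10.1% of all genes) while 0 were halved. From Sham to Lam 3 of 14 at least doubled (8.08%), and from Lam to DCA 3 of 14 were at least halved (5.72%). Their median log2 ratio for SNA over Sham was 0.49, against 0.15 for all genes. From this list Ecel1, an endopeptidase of injured neurons, and Nts, the peptide neurotensin, had an ATAC peak at the start after SNA and not Sham. Ecel1 also had it after DCA and not Lam. Gap43, a growth cone protein, had it after DCA alone, and so not after SNA. Vip, an injury-associated neuropeptide, had it after Lam and after neither DCA nor Sham. The other lists stayed nearer to all genes, with median ATAC ratios of 0.26 for 12 other family members, 0.23 for 14 coactivators and partners, 0.20 for 18 upstream kinases and regulators and 0.17 for 20 target genes of the stress response.

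Starts differed between paired lists at a few genes in those groups. Mapk10, which encodes the neuronal kinase JNK3, had a start ATAC peak after SNA and Lam and after neither Sham nor DCA. Mbtps2, the protease that frees Atf6 and Creb3 from the membrane, had it after Sham and after neither SNA nor Lam. The same held for the Atf4 target Shmt2. Batf had it after Sham and not SNA, and Map3k13, a relative of DLK, had it after Sham and not Lam. Creb3l3 had it after DCA and not Lam, and Slc7a11, the cystine transporter that Atf4 activates, after Lam and not DCA. Among the 14 coactivators and the 10 members 0 starts differed in this way. The share of all genes whose start differed so was not computed, so these cases have no general share beside them. For H3K27ac from Sham to SNA 7 of 17 kinases, 3 of 12 family members, 3 of 18 stress targets, 1 of 14 coactivators and 1 of 6 injury genes at least doubled, against 31.2% of all genes.

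The genes whose peak numbers most resembled those of Atf3 were found over 16 values, log2 of the number plus 1 in each list, among 7478 genes of 0.5 to 2 times its length. They included Pcp4l1 at a distance of 2.03, Tlr5 at 2.05, Pla2g12a at 2.21 and Xaf1 at 2.29, where the median distance was 5.24. Pcp4l1 had 2, 4, 6 and 4 ATAC peaks, Tlr5 had 3, 10, 10 and 8 and Pla2g12a had 4, 6, 5 and 7, all lowest after Sham like Atf3. Xaf1 had 2, 2, 4 and 7, as few after SNA as after Sham. The ATAC numbers are among the 16 values by which these genes were chosen, so this likeness is built in. Likeness here rests on 16 lists of different depth and is a description only.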

How the data were processed

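The lists and members were chosen with earlier results of these data known. Peak lists were analysed as deposited, 1 per assay and operation, with replicates pooled by the authors per the labels. Intervals are on mm10 per the submitters' processing notes. The aligner and peak caller are not given in the sources used here. Per the columns of the deposited files, each peak carries a score, a fold enrichment (a ratio over background), a −log10 p and a −log10 q, and a summit offset, another number, all from the authors. ATAC intervals listed for several summits were counted once, with the strongest summit. Coordinates are 1-based.

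Peaks overlapping a gene and 10 kb on either side were counted for 21887 RefSeq genes (GRCm38.p6). Starts by strand came from the RefSeq start table. For 4395 genes, Atf6 among them, both gene ends were used. Peaks of 2 lists were shared at an overlap of at least 1 bp. A gene counted as doubled or halved when log2 of the numbers plus 1 differed by at least 1, among genes with a peak in either list. With 1 pooled list per group there was no test, SD or p-value. Background reads per kb were computed from fold, p and pileup score of each acetylation and ATAC list.

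All 10 members are named. Their positions are named for the strongest peak within 1 kb of a start and, away from it, for the strongest region in all 4 lists, in SNA and not Sham, and in DCA and not Lam. For Atf3 every ATAC and acetylated start region was given, and the Creb5 peaks with a q of at most 0.05 were chosen after their values were seen. Genes of the 5 lists are named where a start ATAC peak was in 1 list of a pair and not the other. Of the genes most like Atf3 in peak numbers, chosen by distance among genes of similar length, 1 is not reported here. Of 6 macrophage markers 2 or 3 had an ATAC peak at the start, and of 3 endothelial markers 1 to 3. Counting was checked on simulated peaks. Alternatives were the window, q cut-offs, equal list sizes, a common depth, the overlap rule, the start distance, every summit counted, and the set without Creb5. Python 3.11.15, numpy 2.4.6, pandas 2.3.3, scipy 1.17.1 and matplotlib 3.10.9 were used.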

Additional observations from a re-analysis of the deposited data

Results flagged for a closer look

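At some members the numbers of peaks went in opposite directions for the 2 axotomies, each set against its own control. With 1 pooled list per operation, the difference between the directions was not tested. H3K27ac at Creb1 numbered 1 (Sham), 4 (SNA), 5 (Lam) and 1 (DCA), and the log2 ratios, 2.00 (SNA against Sham) and −2.32 (DCA against Lam), with no 1 added to the numbers, differed by 4.32. At Creb3 it numbered 3, 7, 5 and 2, with ratios of 1.22 and −1.32 that differed by 2.54. Over all 10 members it numbered 37, 89, 75 and 46, with ratios of 1.27 and −0.71 that differed by 1.97. The median of all genes went the same ways, at 0.53 and −0.32, and the whole H3K27ac lists held 43803, 75824, 67311 and 46489 peaks.

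H3K27me3 gave 3 such members, all with few and weak peaks. Atf1 numbered 1, 3, 2 and 1, with ratios of 1.58 and −1 that differed by 2.58. Atf3 numbered 3, 7, 4 and 2, with 1.22 and −1, a difference of 2.22. Atf5 numbered 1, 2, 3 and 1, with 1.00 and −1.58, a difference of 2.58. Among all genes measured 58.8% were at least halved in H3K27me3 from Lam to DCA, and the DCA list was the shortest of the 4.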

How the results depend on the processing

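No paired analysis was possible because the replicates of each group were pooled in 1 list. Log2 ratios are of the members' summed numbers and shares are of unmatched peaks. Counting the gene alone, 50 kb on either side, a common depth or every summit moved no summed value beyond its interval. For ATAC and H3K27ac the common depth removed almost no peaks around the members, so it could move little. Other distances from the start moved no number of members with a start peak beyond a fixed fold limit. Over these and all other settings the ATAC ratio of SNA over Sham ran from 0.39 to 0.90. At a −log10 q of at least 1.3, ratios became 1.51 (H3K9ac, SNA over Sham), 1.41 (H3K9ac, DCA over Lam) and −4.58 (H3K27me3, SNA over Sham), and shares 70.4% (H3K9ac, SNA), 60.5% (H3K9ac, Lam) and 100% (H3K27me3, SNA). At 5 or more, H3K9ac ratios were 1.58, 2.00 (DCA over Lam) and 2.00 (Lam over Sham), that of H3K27ac 0.18, H3K9ac shares 88.9% (SNA), 77.1% (DCA) and 75.0% (Lam), ATAC shares 50.0%, 14.3% and 12.5%, and acetylated starts in all lists 1 (H3K9ac) and 2 (H3K27ac). With equal list sizes the H3K9ac ratio of SNA over Sham reversed to −0.03. That of DCA over Lam was 0.16, those of H3K27ac 0.49, −0.10 and 0.31 (Lam over Sham), and those of H3K27me3 −0.79 (SNA) and −0.51 (Lam), with shares of 54.4% (H3K9ac, DCA) and 61.5% (H3K27ac, SNA). An overlap of at least 50% of each peak gave 72.2%, 88.2% and 61.1% (H3K9ac in SNA, DCA and Lam), 82.0%, 73.9% and 80.0% (H3K27ac) and 87.5%, 100% and 90.3% (H3K27me3). A gap of up to 1 kb gave 30.4%, 45.1% and 24.1% (H3K9ac), 53.9% (H3K27ac, SNA) and 48.2% (H3K27me3, SNA). Leaving out Creb5, chosen after seeing the data, gave H3K27me3 ratios of 0.92 (SNA) and 0.83 (Lam) and shares of 43.1% (H3K9ac, SNA) and 87.5% (H3K27me3, Lam). The causes were not tested. Values of single members were judged by a fixed fold limit around the value as first counted, with no interval. Of these, 518 stayed within the limit and 442 moved beyond it. H3K27me3 gave no other value at the q limits and could not be thinned. Scaled background density ran from 7.87 to 26.0 reads per kb over the H3K9ac lists, and from 25.0 to 28.3 without the scale factor. The scaled spread limits what absence from the lists of lower density shows.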
